A study of Homo sapiens with 6 samples.

Results

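The genes described here encode the proteins of the mitochondrial ribosome. They were chosen as the protein-coding genes of the deposited expression table whose symbol is MRPL or MRPS followed by a number, which gave 78 of 46427 genes, 49 with an MRPL and 29 with an MRPS symbol. By the structure of the particle, 51 of the products belong to the large subunit and 26 to the small subunit, since MRPS18A and MRPS30 carry small-subunit names but are proteins of the large subunit. The remaining gene, MRPS36, encodes a protein now known as a component of the 2-oxoglutarate dehydrogenase complex, and it is counted among the 78 but in neither subunit. No measured value was used to choose the genes.

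Mitochondria keep their own ribosomes, which translate the few mRNAs of the mitochondrial genome into core subunits of the respiratory chain. The ribosomal RNAs of these ribosomes are made inside the organelle, whereas every ribosomal protein is encoded in the nucleus, translated in the cytosol, and imported. Some of the proteins descend from the bacterial ancestor of mitochondria and others were added during the evolution of the mitochondrial particle.

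RNA-seq was performed on 6 libraries from 3 NSCLC cell lines, H460, H1299, and A549, with 1 control library and 1 library after transfection with an siRNA against the lncRNA MALAT1 (si-MALAT1) for each cell line. The controls are labelled as untreated, but the methods mention negative controls as well as si-Control cells without naming the one that was sequenced, so effects of transfection and of MALAT1 loss cannot be told apart. The labels place the si-MALAT1 libraries under MALAT1 knockdown and the controls under tumor, and they give neither the sequence of the siRNA nor the time between transfection and RNA extraction. With 1 library per cell line and condition there is no replicate within a cell line, and the comparison paired by cell line is the one with replicates.

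The read counts summed to between 42506818 and 68515992 per library. MALAT1 itself had 452, 805, and 305 TPM in the controls of H460, H1299, and A549 and 82.5, 110, and 42.2 TPM in the matching si-MALAT1 libraries, so the targeted RNA was lower in each library labelled si-MALAT1. TPM is the authors' level per gene, corrected for transcript length and scaled to 1 fixed total in each library. The epithelial keratins KRT8 and KRT18 had at least 11408 and 20233 reads in every library, while the epithelial cadherin CDH1 had 2 to 13 reads in the H460 and H1299 libraries and 4693 and 7373 in those of A549. The epithelial marker EPCAM had 23 to 73 reads in the H460 and H1299 libraries and 196 and 485 in those of A549. Of the lung lineage genes, SFTPB had 0 reads in every library, and NKX2-1 had 28 and 30 in H1299 and 0 elsewhere. SFTPC had 0 to 11 reads per library and NAPSA 12 to 131. Of 10 markers of immune, fibroblast, and endothelial cells, 2 had reads in every library and 3 (PTPRC, CD3E, and CDH5) had none in any. The summed TPM of the 10 markers was 7.97, 0.784, and 5.82 in the controls of H460, H1299, and A549 and 10.7, 0.927, and 11.1 in their si-MALAT1 libraries, and its part in the results on the ribosomal protein genes was not tested.

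The promoters of 4 genes are shown because their RNAs stood among the lowest (MRPL58 and MRPL45) or the highest (MRPL1 and MRPL48) after si-MALAT1 in all 3 cell lines and hold a motif. The promoter of MRPS6, the gene with the highest mean change, holds none of the 3 motifs and is not shown. Each runs from 250 bases before to 50 bases after the annotated start, on the GRCh38.p14 assembly as given by RefSeq, and is written 5′ to 3′ on the strand of the gene. Capitals mark 3 motifs searched on both strands, the ETS motif CCGGAAG, the NRF1 motif, and the YY1 motif AANATGGCG.
MRPL58 (chr17:75012420-75012719, plus strand): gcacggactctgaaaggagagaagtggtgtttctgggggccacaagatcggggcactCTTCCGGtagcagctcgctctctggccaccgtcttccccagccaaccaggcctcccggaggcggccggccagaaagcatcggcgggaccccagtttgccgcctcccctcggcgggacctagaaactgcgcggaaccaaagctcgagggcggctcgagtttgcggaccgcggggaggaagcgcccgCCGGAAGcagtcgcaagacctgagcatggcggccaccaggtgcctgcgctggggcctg
MRPL45 (chr17:38296918-38297217, plus strand): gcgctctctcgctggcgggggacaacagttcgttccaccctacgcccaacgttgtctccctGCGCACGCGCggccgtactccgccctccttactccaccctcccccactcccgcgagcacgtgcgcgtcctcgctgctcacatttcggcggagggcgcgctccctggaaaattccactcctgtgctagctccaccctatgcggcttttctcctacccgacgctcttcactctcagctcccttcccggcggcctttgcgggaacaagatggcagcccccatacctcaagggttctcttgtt
MRPL1 (chr4:77862580-77862879, plus strand): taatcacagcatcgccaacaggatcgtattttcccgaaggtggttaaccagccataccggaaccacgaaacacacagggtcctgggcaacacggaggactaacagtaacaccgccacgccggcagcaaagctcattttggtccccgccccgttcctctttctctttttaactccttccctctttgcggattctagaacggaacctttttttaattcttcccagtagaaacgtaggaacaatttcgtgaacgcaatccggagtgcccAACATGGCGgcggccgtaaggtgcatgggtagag
MRPL48 (chr11:73787624-73787923, plus strand): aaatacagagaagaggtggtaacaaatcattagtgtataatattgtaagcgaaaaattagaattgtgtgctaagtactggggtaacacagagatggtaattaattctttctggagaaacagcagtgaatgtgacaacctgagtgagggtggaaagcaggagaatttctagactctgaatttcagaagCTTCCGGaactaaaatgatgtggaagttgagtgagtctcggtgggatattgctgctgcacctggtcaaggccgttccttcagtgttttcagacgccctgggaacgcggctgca
MRPL58, the lowest of the 78, holds the ETS letters at 2 places, MRPL45 holds the NRF1 letters once, MRPL1 holds the YY1 letters once close to its start, and MRPL48 holds the ETS letters once. A match of letters is not a site of binding, and no binding was measured.

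Promoters were matched for 70 of the 78 genes, all but MRPL2, MRPL10, MRPL13, MRPL15, MRPL21, MRPL23, MRPL35, and MRPS28. Letters of different motifs overlapped in 0 of them. The ETS letters stood in 28 of the 70 promoters (40.0%), against 18.9% of the promoters of 10527 coding genes tested here, and the YY1 letters in 18 (25.7%), against 6.81%. The NRF1 letters stood in 6 (8.57%, against 11.4%), the CCAAT motif CCAATNA in 10 (14.3%, against 15.9%), and the TATA motif TATAAA in 3 (4.29%, against 5.92%). ETS and YY1 letters thus stood in a larger share of these promoters than of those of the tested genes, while the counts of the other 3 motifs were near the shares of the tested genes. The median GC content of the promoters was 59.7%, against 65.3% for those genes. The motifs were chosen from general knowledge of promoters of mitochondrial genes, so the shares are a description. The ETS letters stood both in MRPL58, which was lower after si-MALAT1, and in MRPL48, which was higher.

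Ribosomal protein genes were short and compact. On the annotation used by the authors, the median spliced length was 1356 bases against 3379 for 12821 tested coding genes, the median coding length 570 against 1308, the median number of exons 5 against 9, and the median GC content of the transcript 48.7% against 48.3%. They differed from other coding genes in size and hardly in the base composition of the transcript. The 78 genes lay on 21 chromosomes, and 26 of them (33.3%, against 20.7% of the tested coding genes) had the start of another gene within 1000 bases on the opposite strand, pointing away. One such pair consists of 2 members, MRPL46 and MRPS11, whose starts lie 320 bases apart on chromosome 15. MRPL43 shares its upstream region with TWNK, the mitochondrial DNA helicase, at 28 bases, MRPL47 with NDUFB5, a subunit of respiratory complex I, at 141 bases, and MRPS12 with SARS2, the mitochondrial seryl-tRNA synthetase, at 181 bases.

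All 78 genes were transcribed in every library, with 434 to 9861 reads per gene and library. The mean level over the 6 libraries ran from 7.26 TPM for MRPL42 to 130 TPM for MRPL51, a 17.9-fold spread, with a median of 34.3 TPM, and 75 of the 78 genes exceeded 10 TPM. Members of 1 particle thus differed widely in TPM. Mean reads per library were close for the genes at the ends, 5618.5 for MRPL42 and 5685 for MRPL51. Their annotated transcripts with the longest 3′ UTR have 15557 and 898 spliced bases. The order in TPM thus depends on the length used, and whether the long 3′ UTR of MRPL42 is expressed was not tested. The 5 highest were MRPL51, a mitochondria-specific protein of the large subunit, MRPL33, the counterpart of bacterial L33, MRPS24, the counterpart of bacterial S3, MRPL3, which reaches toward the peptidyl transferase center, and MRPL24, which lies near the exit of the peptide tunnel. The 5 lowest were MRPL42, MRPS33, MRPL22, MRPL2, and MRPS17.

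**Figure D1:**
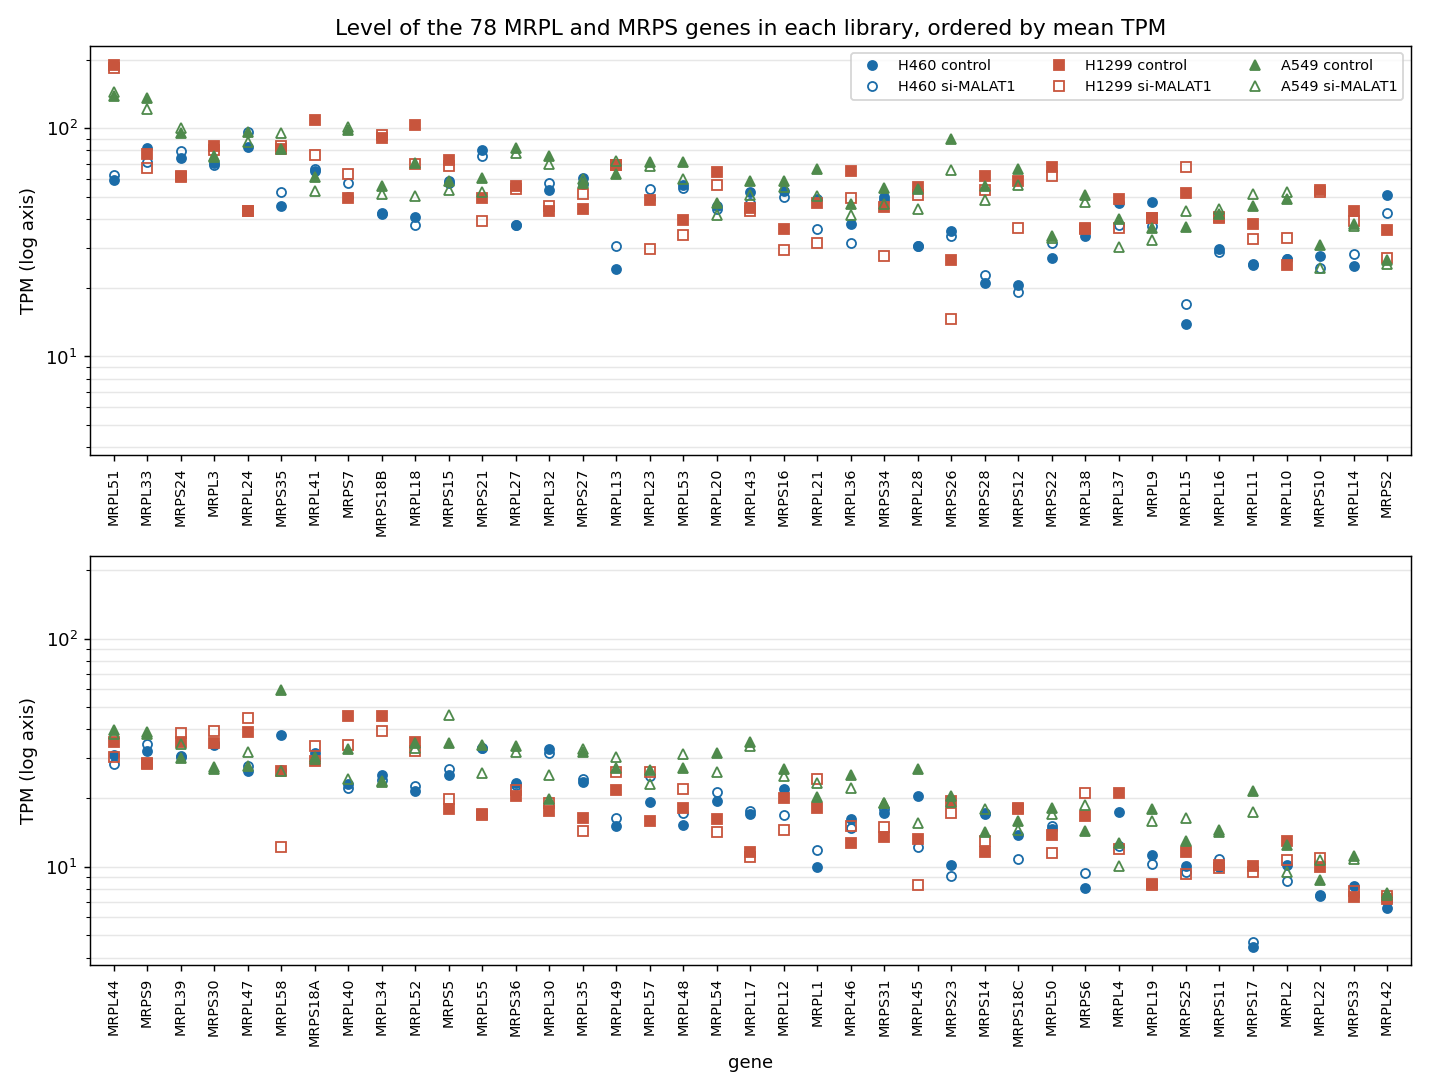
Level in TPM (log axis) of each of the 78 genes, ordered by mean TPM, in the control (filled) and si-MALAT1 (open) libraries of H460 (circles), H1299 (squares), and A549 (triangles). Mean levels run from 130 TPM for MRPL51 to 7.26 TPM for MRPL42, and for genes such as MRPS17 and MRPL51 the cell lines stand further apart than the libraries of 1 cell line.

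MRPL51 had 59.2 and 62.7 TPM in the control and si-MALAT1 libraries of H460, 190 and 185 for the pair of H1299, and 139 and 144 for that of A549. The cell lines did not overlap, and within a cell line the libraries were close. MRPL42, at the other end, had 6.59 and 7.05 TPM (H460), 7.21 and 7.47 (H1299), and 7.68 and 7.54 (A549). Its cell lines did not overlap in TPM either, but lay much closer together. That order was not kept in the edgeR fit of read counts described below. There MRPL42 stood at -0.25 in H1299 and -0.13 in A549 relative to H460 on the log2 scale (edgeR adjusted p = 0.181 and 0.483). Across the 78 genes, the rank correlation of TPM between the libraries of 1 cell line was 0.94 to 0.98, and between libraries of different cell lines 0.68 to 0.84. These correlations are across genes of the same libraries and describe how far the order of levels is shared. The summed TPM of the 78 genes was 2535, 3084, and 3444 in the controls of H460, H1299, and A549 and 2490, 2842, and 3238 in their si-MALAT1 libraries. The sum was thus slightly lower in each si-MALAT1 library, by 0.03, 0.12, and 0.09 on the log2 scale. Taken as a share of all read counts, it was higher in H460 (0.306% in the control and 0.330% after si-MALAT1), lower in H1299 (0.360% and 0.325%), and equal in A549 (0.390% and 0.390%). In such bulk libraries, fewer cells with the RNA and less RNA per cell cannot be told apart.

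To ask whether the genes responded to si-MALAT1 in the same way in the 3 cell lines, the read counts were fitted in edgeR with a block for each cell line and 2 residual degrees of freedom. No member passed an adjusted p (Benjamini-Hochberg over 19122 genes) of 0.05 in either direction, where 0% of all genes were called higher and 0.00523% lower, the latter being MALAT1 alone. At an unadjusted p under 0.05, edgeR gave 3 members higher (3.85%, against 7.38% of all genes) and 6 lower (7.69%, against 7.59%). The DESeq2 test, used by the study and run here with the same block, called 1 member higher and 4 lower at an adjusted p of 0.05, with 2.22% of all genes called higher and 2.03% lower. These shares are over 31353 genes with a read. That total includes genes with few reads that were left out of the 19122 genes in edgeR. The genes it called were MRPL15, which was higher, and MRPL45, MRPL58, MRPL4, and MRPL21, which were lower. All the members named in the next paragraphs are therefore given by their values, and none passed the main test.

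MRPL58 (Gene ID 3396, GRCh38 chromosome 17 from 75012670 to 75021261, plus strand) is the peptidyl-tRNA hydrolase built into the large subunit, and it frees stalled chains from mitochondrial ribosomes. Its TPM was 37.7, 26.2, and 59.7 in the controls of H460, H1299, and A549 and 26.5, 12.2, and 26.4 in their si-MALAT1 libraries. Every si-MALAT1 library was lower than its control, although the H460 si-MALAT1 library stood level with the H1299 control. On the scale of log2 of the scaled read count plus 1, the differences were -0.37 (exact 95% Clopper-Pearson interval -0.47 to -0.27), -1.17 (-1.31 to -1.02), and -1.17 (-1.28 to -1.05), and these intervals cover counting error only. The paired estimate was -0.92 with a standard error of 0.19 (edgeR adjusted p = 0.12). With H460 left out, the edgeR adjusted p was 0.0309, and DESeq2 on all libraries gave 0.00405.

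MRPL45 (Gene ID 84311, chromosome 17 from 38297023 to 38323218, plus strand) sits at the exit of the peptide tunnel and holds the ribosome at the inner membrane. It had 20.5 and 12.2 TPM in the control and si-MALAT1 libraries of H460, 13.3 and 8.32 for the pair of H1299, and 26.9 and 15.5 for that of A549. The difference was of nearly equal size in the 3 cell lines, at -0.62 (-0.72 to -0.51) for H460, -0.74 (-0.88 to -0.60) for H1299, and -0.78 (-0.90 to -0.66) for A549 on the log2 scale. The paired estimate was -0.73 ± 0.11 (SE), the nearest of the members to the threshold in edgeR (adjusted p = 0.0819), and DESeq2 gave an adjusted p of 1.1e-05. The pseudogene MRPL45P2 collected 26.6% as many reads as MRPL45 over the 6 libraries, so reads may have been split between them. MRPL45P2 had 316 and 296 reads (H460), 442 and 374 (H1299), and 265 and 231 (A549), with log2 fold changes of -0.01, -0.11, and -0.34.

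MRPL4 and MRPL21 followed. MRPL4 (Gene ID 51073, chromosome 19 from 10251962 to 10260055, plus strand), which lines the peptide tunnel, had 17.4 and 12.3 TPM (H460), 21.0 and 12.01 (H1299), and 12.7 and 10.1 (A549), and its log2 fold changes were -0.40, -0.84, and -0.43 (edgeR adjusted p = 0.157). MRPL21 (Gene ID 219927, chromosome 11 from 68891276 to 68903832, minus strand), the counterpart of bacterial L21, had 48.8 and 36.2 TPM (H460), 47.0 and 31.6 (H1299), and 66.5 and 50.6 (A549), with log2 fold changes of -0.29, -0.65, and -0.38 (edgeR adjusted p = 0.177). For both genes the difference was larger in H1299 than in the other cell lines. MRPL37, MRPL12, MRPL2, and MRPL36 were lower in all 3 cell lines by smaller amounts, between -0.10 in A549 and -0.53 in H1299, both for MRPL12, the protein of the stalk that recruits translation factors. For MRPL12 in A549 (-0.23 to 0.04) and MRPL2 in H460 (-0.25 to 0.06) the counting interval held 0. All 8 genes at this end encode proteins of the large subunit, as do 51 of all 78.

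**Figure D2:**
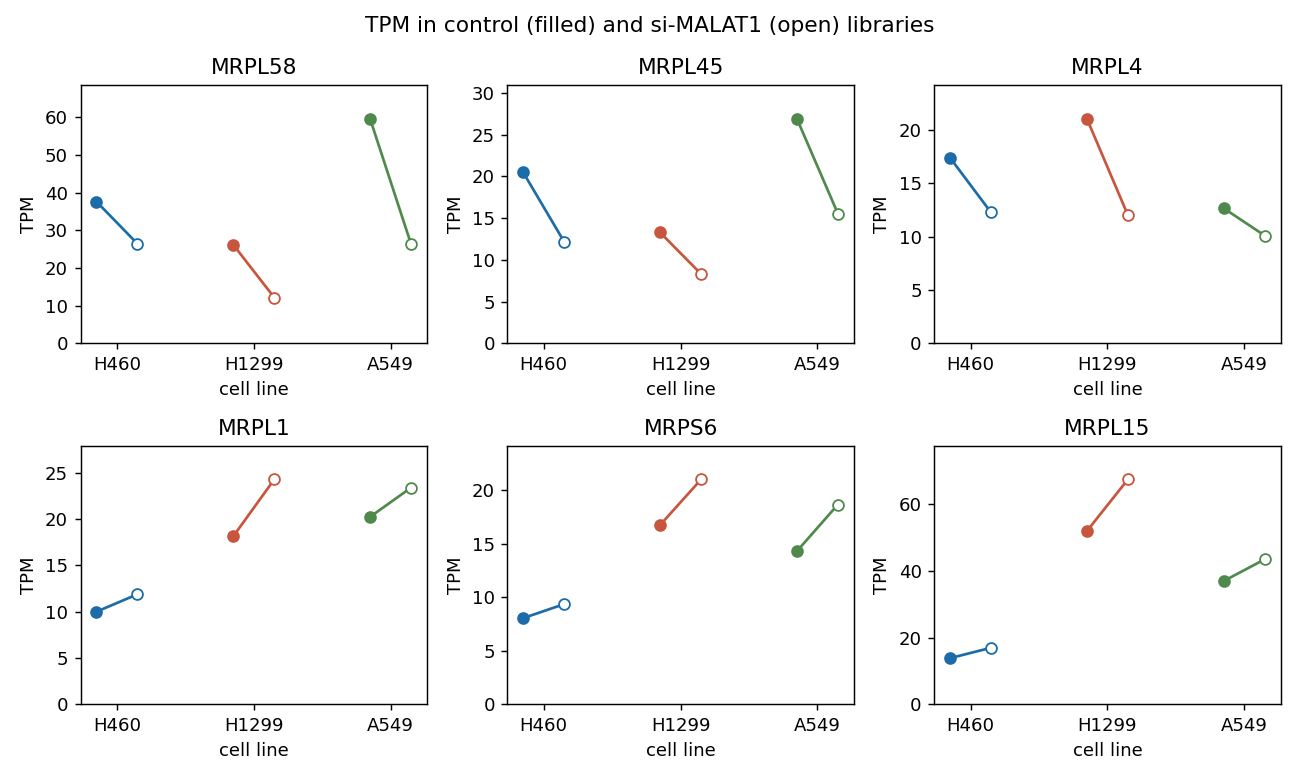
TPM of 6 genes in the control (filled) and si-MALAT1 (open) library of each cell line, 1 library per point and axes starting at 0. MRPL58, MRPL45, and MRPL4 were lower in each si-MALAT1 library, and MRPL1, MRPS6, and MRPL15 were higher in each.

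At the other end stood MRPS6, MRPL1, MRPL48, and MRPL15. MRPS6 (Gene ID 64968, chromosome 21 from 34073578 to 34143030, plus strand), the counterpart of bacterial S6, had 8.04 and 9.35 TPM (H460), 16.7 and 21.0 (H1299), and 14.3 and 18.6 (A549). Its log2 fold changes were 0.35 (0.17 to 0.54), 0.26 (0.13 to 0.39), and 0.39 (0.22 to 0.57), with an edgeR adjusted p of 0.335. MRPS6 shares 18.1% of its exon bases with SLC5A3, a myo-inositol transporter on the same strand, which had between 2688 and 6300 reads per library, so part of the MRPS6 reads could come from that gene.

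MRPL1 (Gene ID 65008, chromosome 4 from 77862680 to 77952790, plus strand), of the stalk that guides out the spent tRNA, had 9.99 and 11.9 TPM (H460), 18.1 and 24.3 (H1299), and 20.2 and 23.4 (A549). Each si-MALAT1 library was above its control, with log2 fold changes of 0.41, 0.34, and 0.23 (edgeR adjusted p = 0.299). MRPL48 (Gene ID 51642, chromosome 11 from 73787874 to 73865133, plus strand), a mitochondria-specific protein, differed by 0.38, 0.21, and 0.39 (edgeR adjusted p = 0.287), and MRPL15 (Gene ID 29088, chromosome 8 from 54135224 to 54148514, plus strand), the counterpart of bacterial L15, by 0.44, 0.31, and 0.23 (edgeR adjusted p = 0.262, DESeq2 adjusted p = 0.0419). MRPS5, MRPS7, MRPL49, and MRPL47 were higher in the 3 cell lines by between 0.06 (MRPS7 in A549) and 0.41 (MRPS5 in A549). None of the higher genes reached a 1.5-fold change in any cell line.

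On scaled read counts, most of the genes shared the direction of a small shift within a cell line. That direction differed between cell lines. With TPM the median in H460 was near 0, though still above that of all genes, and the shift in H1299 was smaller. With FPKM, the authors' other level corrected for length and depth, the shift in H460 remained. Within a library TPM and FPKM differ by 1 factor common to all genes, so changing between them moves all genes nearly alike. In H460 the median over all genes was -0.07 with log2(TPM + 1) and 0.0039 with log2(FPKM + 1). The members lay 0.06 and 0.12 above it. In H460, 62 of the 78 members were higher and 16 lower after si-MALAT1, where 51.9% of all genes were higher and 48.1% lower, and with log2(TPM + 1) in place of scaled counts 38 were higher and 40 lower. In H1299, 21 were higher and 57 lower (29 and 49 with log2(TPM + 1)), where 51.9% and 48.1% of all genes were, and in A549 28 were higher and 50 lower (26 and 52), where 50.7% and 49.3% of all genes were. The sign of the log2 fold change differed between scaled counts and log2(TPM + 1) for 24 (H460), 8 (H1299), and 2 (A549) of the members. The median log2 fold change of the members was 0.13 in H460, -0.14 in H1299, and -0.08 in A549, beside medians of 0.02, 0.02, and 0.01 over the 17834 genes read in every library. In H460 the median was -0.0021 with log2(TPM + 1), beside -0.07 over all genes, so the distance between members and all genes was 0.06 on that scale and 0.11 on the counts. In H1299 the median was -0.0473 with log2(TPM + 1), beside 0.04 over all genes, a distance of -0.0864, as against -0.17 on the counts. In A549 it was -0.0802, beside 0.0024. The genes of 1 library share its preparation and scaling, so their number adds no replicates to these comparisons.

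The medians of the subunits were close to each other. In H460 the median log2 fold change was 0.13 for the large and 0.13 for the small subunit (40 of 51 and 21 of 26 higher, but 26 of 51 and 12 of 26 with log2(TPM + 1)), in H1299 -0.16 and -0.12 (38 of 51 and 19 of 26 lower, with medians of -0.0674 and -0.0393 for log2(TPM + 1)), and in A549 -0.09 and -0.04 (34 of 51 and 15 of 26 lower). Proteins with a bacterial counterpart and those specific to mitochondria also stood close together, at 0.13 and 0.13 (H460), -0.14 and -0.19 (H1299), and -0.08 and -0.07 (A549). No difference between these groups was tested.

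**Figure D3:**
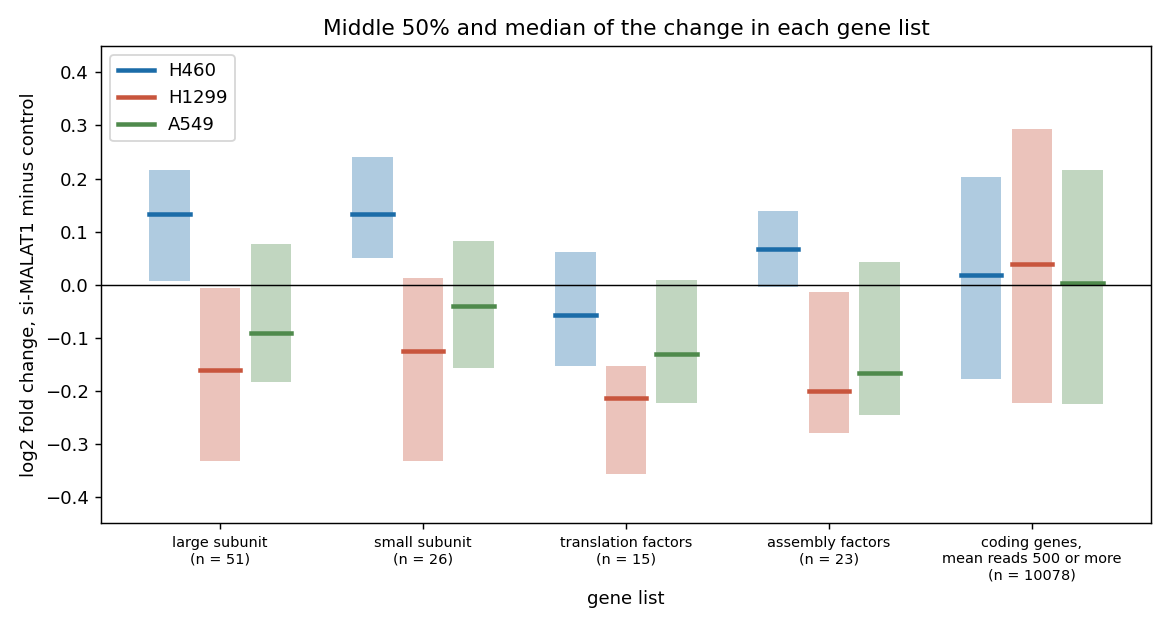
Median (line) and middle 50% (bar) of the log2 fold change, si-MALAT1 minus control, of each gene list in H460, H1299, and A549. On scaled read counts both ribosomal subunits have medians of 0.13 in H460 (0.0002 and -0.0216 with log2(TPM + 1)) and negative medians in H1299 and A549, while 10078 coding genes with a mean of at least 500 reads have medians near 0 in each cell line.

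On scaled read counts, few members passed a 1.5-fold change, and those that did were lower. The share of members lower by that amount was below that of all genes in H460 and A549 and near it in H1299. With log2(TPM + 1), MRPL57 was higher past 1.5-fold in H1299 (0.69). In H460, 0 members were higher and 1 (MRPL45) lower by that amount, where 9.50% and 10.3% of all genes were. In H1299, 0 were higher and 9 lower, where 11.7% and 11.4% of all genes were, and in A549 0 were higher and 2 (MRPL58 and MRPL45) lower, where 11.5% and 11.4% were. Many genes past 1.5-fold have few reads, which the members do not. Among coding genes with a mean of at least 500 reads, the shares higher and lower were 3.64% and 4.31% (H460), 8.33% and 7.25% (H1299), and 5.26% and 7.31% (A549). The 9 genes in H1299 were MRPL58, MRPS26, MRPL4, MRPL23, MRPS34, MRPS12, MRPL45, MRPL21, and MRPL18, the last of which was named after its values were seen.

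Taking the signs together, 16 members were higher in all 3 cell lines (20.5%, against 21.4% of all genes) and 15 were lower in all 3 (19.2%, against 18.8%). On scaled counts, agreement over the 3 cell lines was thus about as frequent as among all genes. With log2(TPM + 1), 15 members were higher in all 3 (19.2%, against 17.2% of all genes) and 28 lower (35.9%, against 21.1%). The sign pattern of higher in H460 and lower in both H1299 and A549 was held by 30 members (38.5%, against 11.2% of all genes), or by 13 (16.7%, against 6.43%) with log2(TPM + 1). The reverse pattern was held by 0 on scaled counts (against 11.3%). With log2(TPM + 1) MRPL16, MRPL30, and MRPS27 had the reverse pattern, and its share of all genes was not taken on that scale. With exact 95% counting intervals, 52 members lay above and 10 below 0 in H460, 12 above and 48 below in H1299, and 22 above and 36 below in A549. For 33 members the intervals of at least 1 pair of cell lines lay on opposite sides of 0. The intervals lay below 0 in all 3 cell lines for 6 members and above 0 for 9. The matching shares of all genes were not taken. These interval counts therefore describe the members only and do not set them apart from other genes with as many reads.

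**Figure D4:**
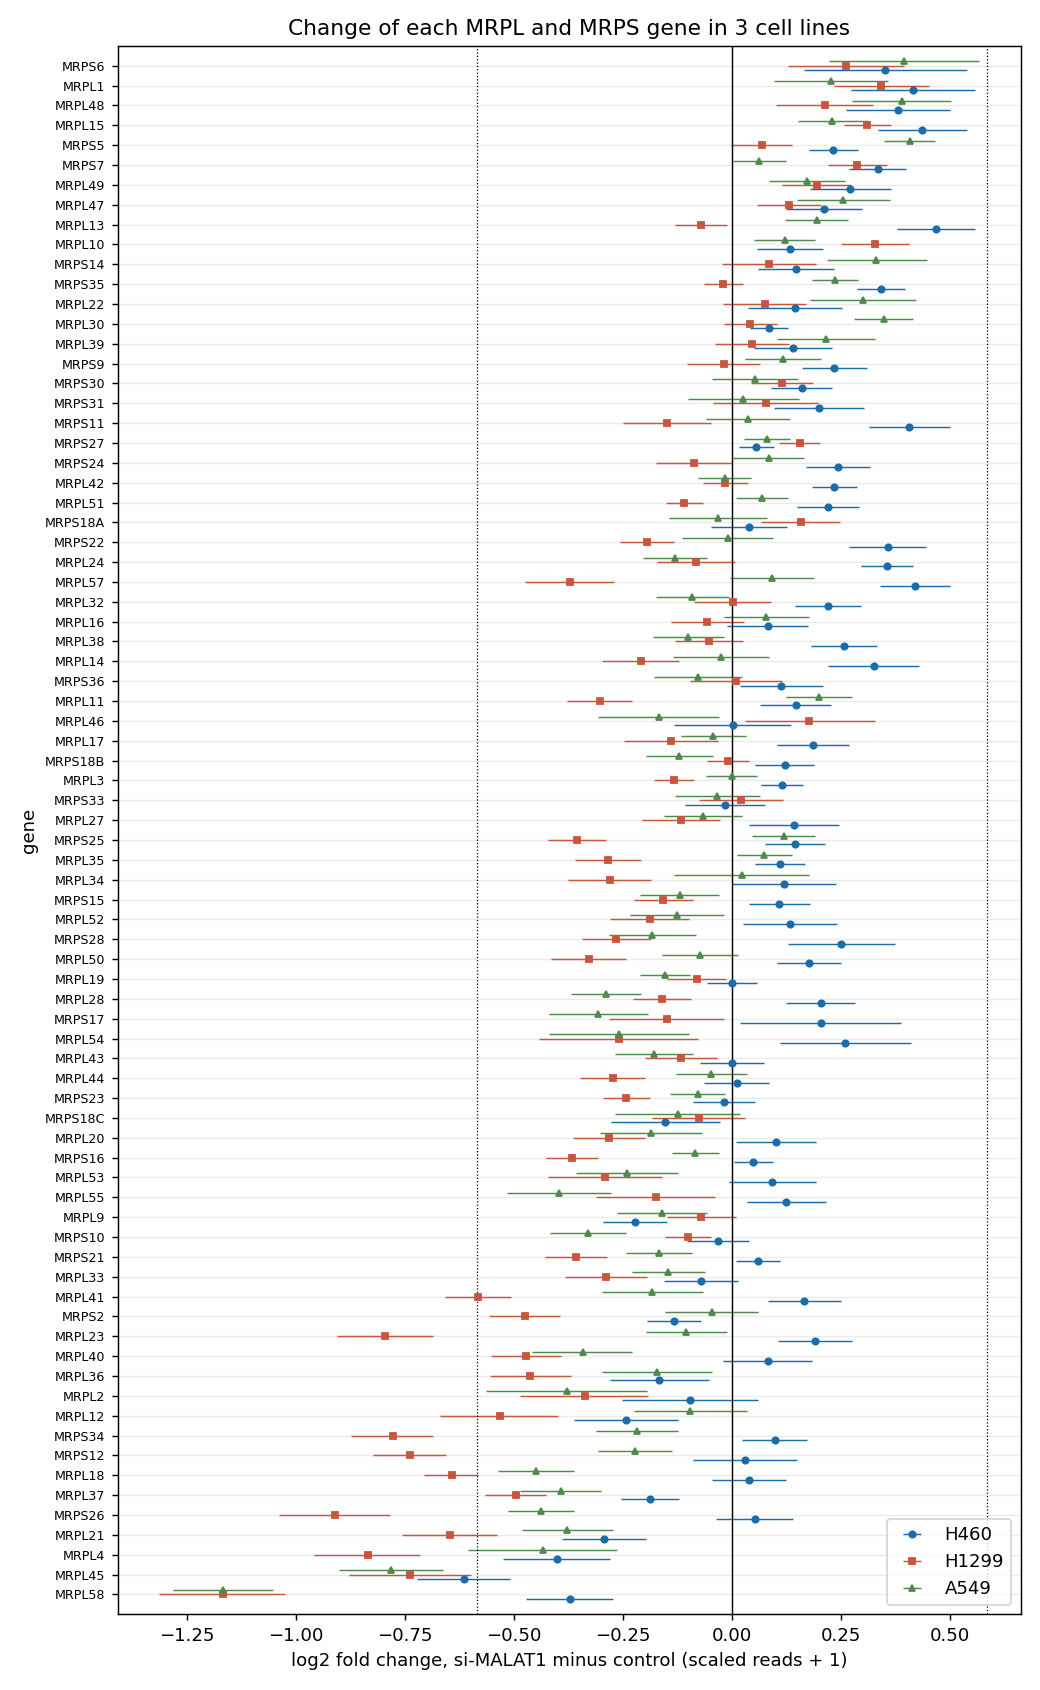
log2 fold change (si-MALAT1 minus control, scaled reads plus 1) of each of the 78 genes in H460 (circles), H1299 (squares), and A549 (triangles), ordered by the mean, with exact 95% counting intervals as bars and dotted lines at a 1.5-fold change. On scaled reads most H460 points lie right of 0 (38 of 78 with log2(TPM + 1) and 62 with log2(FPKM + 1)). Most H1299 points lie left of 0, and MRPL58 and MRPL45 lie lowest.

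Some members stood out by the range of their log2 fold change between cell lines. MRPS26, a mitochondria-specific protein of the small subunit, had 35.6 and 33.6 TPM in the control and si-MALAT1 libraries of H460, 26.4 and 14.6 for the pair of H1299, and 89.6 and 65.6 for that of A549, with log2 fold changes of 0.05, -0.91, and -0.44. MRPL23, at the exit of the peptide tunnel, had 48.9 and 54.1 TPM (H460), 48.7 and 29.5 (H1299), and 71.4 and 68.3 (A549), with log2 fold changes of 0.19, -0.79, and -0.10. In both genes the H1299 libraries were furthest apart. MRPS34 had log2 fold changes of 0.10, -0.78, and -0.22, and MRPS12, which lies at the decoding center, of 0.03, -0.74, and -0.22. With log2(TPM + 1) the H460 values of MRPS26, MRPS34, and MRPS12 were -0.08, -0.04, and -0.09, so these genes were then lower in all 3 cell lines. MRPL57 is a mitochondria-specific protein of the large subunit. Its read counts in H1299 were 1887 in the control and 1331 after si-MALAT1 (log2 fold change -0.37) while its TPM was 15.8 and 26.1, the opposite direction. In A549 it had 1597 and 1881 reads (log2 fold change 0.09) and 26.6 and 22.99 TPM. Its direction in H1299 and A549 therefore depends on the unit, and it is the member whose TPM and counts disagreed most.

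The shift of a gene went with its base composition and its length in 2 of the cell lines. Across the 78 genes, the rank correlation of the log2 fold change with the GC content of the transcript was -0.17 in H460, -0.42 in H1299, and -0.45 in A549, so genes with more G and C tended to lie lower in H1299 and A549. Across 12821 tested coding genes it was -0.08, -0.13, and -0.13. The correlation with the span of the gene on the chromosome was 0.16, 0.37, and 0.39 for the members and -0.11, 0.23, and 0.06 for the tested coding genes. With spliced length it was 0.03, 0.27, and 0.40 for the members and -0.16, 0.26, and 0.06 for the tested coding genes. Among coding genes with a mean of at least 500 reads it was -0.20, 0.30, and 0.07. Shorter coding genes thus tended to lie higher in H460 and lower in H1299, and the members were short (median 1356 bases, against 3379). The points are genes of the same libraries, and the part of base composition and length in the results was not tested.

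More members passed the test between cell lines than after si-MALAT1. The fit described above also gives the contrasts between cell lines, which share libraries, and their p-values measure the spread between the libraries of a cell line after the treatment term. Between A549 and H1299, 35 members were higher in A549 (44.9%, against 24.4% of all genes) and 8 were lower (10.3%, against 24.5%) at an edgeR adjusted p of 0.05. Between H1299 and H460, 13 were higher in H1299 (16.7%, against 26.0%) and 33 lower (42.3%, against 26.6%). Between A549 and H460, 19 were higher in A549 (24.4%, against 18.9%) and 7 lower (8.97%, against 19.3%). These counts rest on TMM scaling, whose factors were 0.89 and 0.90 for the H460 libraries and 1.09 and 1.09 for those of H1299.

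Without those factors, with library totals alone, edgeR called 26 members higher and 17 lower in H1299 than in H460, and the median difference of the members turned from -0.25 to 0.04. The median over all genes turned with it, from 0.01 to 0.29, so the members lay about as far below the median gene on both scales. With log2(TPM + 1) the members had a median difference of 0.09 and all genes of 0.16. For A549 against H1299 the median of the members was 0.36 with TMM scaling (all genes -0.03), 0.27 with library totals (-0.12), and 0.29 with log2(TPM + 1) (-0.03). Relative to the median gene, the members therefore stood lowest in H1299 on each of the 3 scales, while the direction between H1299 and H460 itself changed with the scaling.

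MRPS26 differed most. Its TPM of 26.4 and 14.6 in H1299 and of 89.6 and 65.6 in A549 did not overlap, and it was higher in A549 by 2.0 ± 0.24 (log2, SE; edgeR adjusted p = 0.00106). MRPS17, an rRNA-binding protein of the small subunit, had 4.47 and 4.67 TPM (H460), 10.1 and 9.51 (H1299), and 21.6 and 17.3 (A549), lowest in H460 and highest in A549 with no overlap, and was higher in A549 than in H460 by 1.79 ± 0.18 (edgeR adjusted p = 0.000806). MRPL17 was higher in A549 than in H1299 by 1.67 ± 0.14 (edgeR adjusted p = 0.000324), from 11.6 and 10.99 TPM in H1299 to 35.1 and 33.8 in A549.

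MRPL15 had 13.8 and 16.95 TPM in H460 and 52.0 and 67.5 in H1299, a difference of 1.59 ± 0.13 (edgeR adjusted p = 0.000237). MRPL51 was higher in H1299 than in H460 by 1.27 ± 0.14. In the opposite direction, MRPL24 (-1.41 ± 0.17), MRPL55 (-1.39 ± 0.17), and MRPL30 (-1.19 ± 0.14) were lower in H1299 than in H460, with edgeR adjusted p of 0.000874, 0.00105, and 0.000953. MRPS12 was higher in A549 than in H460 by 1.34 ± 0.20 and MRPL58 higher in A549 than in H1299 by 1.21 ± 0.23. Members of 1 particle thus differed between the same cell lines in opposite directions.

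These level differences ran along the chromosomes. For each gene, the log2 difference between cell lines was set beside the median of up to 20 nearest tested coding genes, at most 10 on each side (14 for MRPL41 and 19 or 20 for the other members). Across the 78 genes the rank correlation was 0.71 for A549 against H1299, with 64 of 78 (82.05%) on the same side of 0 as their neighbors, 0.67 for H1299 against H460 (60 of 78, 76.9%), and 0.64 for A549 against H460 (53 of 78, 67.95%). Across 12690 other coding genes it was 0.46, 0.43, and 0.35, with 68.4%, 66.5%, and 64.5% on the same side, so for A549 against H460 the share of members was close to that of other genes. For the difference after si-MALAT1 it was 0.36 for the members (47 of 78, 60.3%) and 0.16 for other coding genes (55.8%). On chromosome 8, the members MRPL13, MRPL15, and MRPS28 had a median of 1.01 in A549 and 1.04 in H1299 relative to H460, and the other coding genes of that chromosome had 0.56 and 0.62. The points share libraries and, for members near each other, neighbors.

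**Figure D5:**
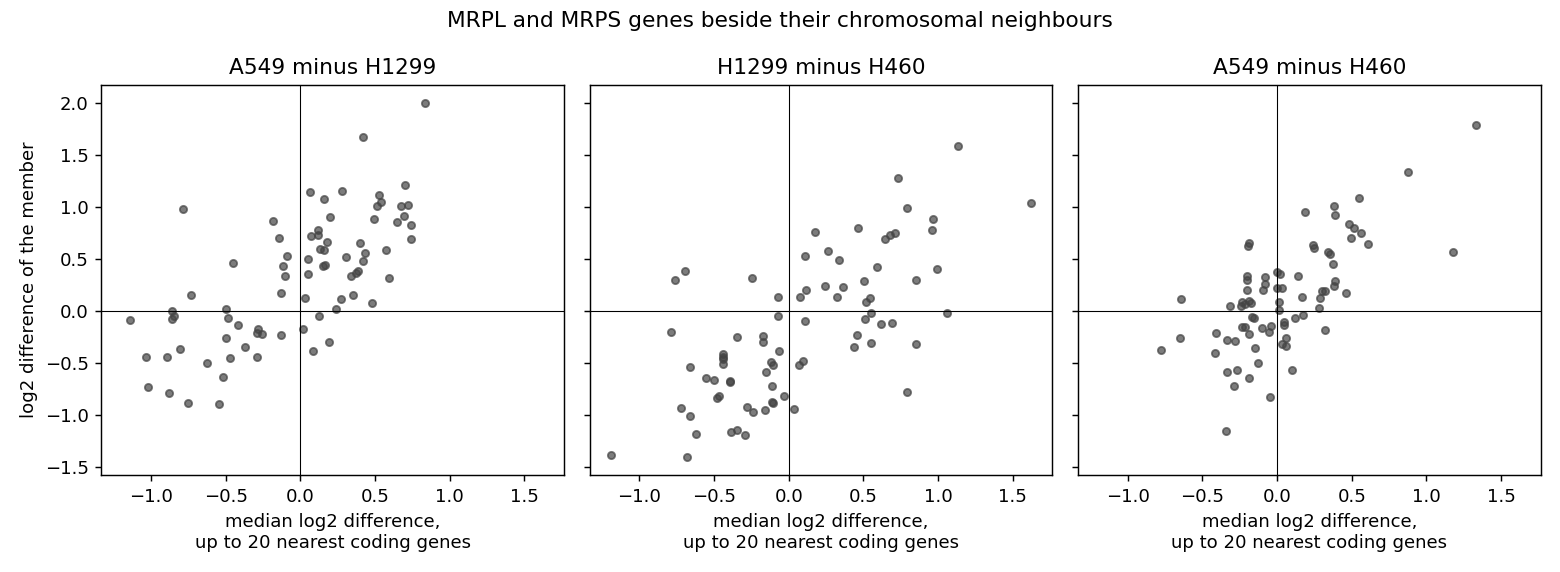
log2 difference between cell lines of each of the 78 genes (vertical) against the median difference of up to 20 nearest coding genes (horizontal), for A549 minus H1299, H1299 minus H460, and A549 minus H460. Most genes lie on the same side of 0 as their neighbors, 64, 60, and 53 of 78 in the 3 panels, as do 68.4%, 66.5%, and 64.5% of other coding genes.

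On scaled counts, the paralogs of the ribosomal protein S18 were all lower in A549 but not in H460 or H1299, and the stalk proteins had no direction in common in any cell line. Of the S18 paralogs, MRPS18B and MRPS18A had log2 fold changes of 0.12 and 0.04 (H460), -0.01 and 0.16 (H1299), and -0.12 and -0.03 (A549), and MRPS18C was lower in all 3 cell lines at -0.15, -0.08, and -0.12. In A549 the counting interval held 0 for MRPS18A (-0.14 to 0.08) and MRPS18C (-0.27 to 0.02), and for MRPS18C it did so in H1299 too (-0.18 to 0.03). With log2(TPM + 1) the H460 values of MRPS18B and MRPS18A were -0.0150 and -0.09, below 0 like that of MRPS18C (-0.31), and MRPS18B stood at 0.05 in H1299. MRPS18B was the highest of the paralogs at a mean of 62.7 TPM, with 30.6 for MRPS18A and 15.1 for MRPS18C. At the base of the stalk, MRPL10 was higher in the 3 cell lines (0.13, 0.33, and 0.12) and MRPL11 in H460 and A549 but not in H1299 (0.15, -0.30, and 0.20, with -0.0013 for log2(TPM + 1) in H460), whereas MRPL12 was lower (-0.24, -0.53, and -0.10). None of these 6 genes passed the paired edgeR test.

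Exon bases were shared with another gene by 23 members, 2 of them on the same strand (MRPS24 with the readthrough gene URGCP-MRPS24 and MRPS6 with SLC5A3) and 21 on the opposite strand. The largest shares on the opposite strand were 84.4% of MRPL19 with GCFC2, 77.3% of MRPS18C with ABRAXAS1, 53.9% of MRPS25 with NR2C2, and 50.3% of MRPS18A with RSPH9. The libraries were made with a stranded kit, but whether reads were assigned by strand is not given in the sources used here. The values of the 21 genes with an overlap on the opposite strand are therefore uncertain. The reads of the other gene varied. RSPH9 had 64 to 402 per library. COPB2, which shares 23.5% of the exon bases of MRPS22, had 7534 to 21093, against 1419 to 4692 for MRPS22. ACTL6A, which shares 9.03% of those of MRPL47, had 2398 to 5072, against 1272 to 3035 for MRPL47. Of the 48 pseudogenes that carry the symbol of a member, 25 had any read and 2 had over 1% of the reads of the parent gene, MRPL45P2 (above) and MRPS31P5 with 34.7% of the reads of MRPS31.

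A pair of overlapping 7-base words, TGAATCA and ATGAATC, had been tied to lower RNA after si-MALAT1 in an earlier analysis of the same libraries, so their presence in the members is a description and no independent support. One or both words stood in the 3′ UTR of 7 of the 78 members (8.97%), against 18.3% of the tested coding genes, whose 3′ UTRs are longer (median 1406 bases, against 525.5). The 7 genes were MRPL19, MRPL22, MRPL4, MRPL42, MRPL45, MRPS16, and MRPS25. The TGAATCA sites of the members that stood lower in all 3 cell lines are shown on GRCh38 and the strand of the gene. Each has 10 bases on each side and the word in capitals. MRPL45 also holds ATGAATC, which overlaps the site shown and begins at the base before it, and MRPL4 holds TGAATCA alone.
MRPL45 (chr17:38323150-38323176, plus strand): gactcactgaTGAATCAgcatttgcat
MRPL4 (chr19:10260028-10260054, plus strand): attgtattttTGAATCAaggaggataa
MRPL58 had neither word. Among the 7 members with a word, 2 were lower and 1 higher in all 3 cell lines, and among the 71 without, 13 were lower and 15 higher. The shares lower in all 3 were 28.6% and 18.3% of the members with and without a word, against 34.0% and 16.8% of the tested coding genes. Genes with a word had longer 3′ UTRs than genes without. The medians were 2514 and 453 bases for the members and 3244 and 1130 for the tested coding genes. The part of this length in the shares was not tested.

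Genes that work with the mitochondrial ribosome were read from lists made from general knowledge, and none of their members passed the paired edgeR test. Of 15 genes for mitochondrial translation factors and partners, 0 were higher and 15 lower in H1299, 5 and 10 in H460, and 4 and 11 in A549. Among all genes, 48.1% were lower in H1299, 48.1% in H460, and 49.3% in A549. In all 3 cell lines 8 of the 15 were lower (53.3%, against 18.8% of all genes). With log2(TPM + 1) 1 was higher and 14 lower in H1299, 3 and 12 in H460, and 4 and 11 in A549. The largest was GFM2, the factor that splits the ribosome after termination, with 30.6 and 20.7 TPM (H460), 37.6 and 21.0 (H1299), and 29.7 and 16.7 (A549), and log2 fold changes of -0.43, -0.89, and -0.80 (edgeR adjusted p = 0.102). GFM1, the elongation factor, had -0.06, -0.56, and -0.60, and MTIF3, an initiation factor, -0.26, -0.33, and -0.15.

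Of 23 assembly factors, 16 were higher in H460 and 7 lower, 6 and 17 in H1299, and 9 and 14 in A549, while with log2(TPM + 1) 7 were higher and 16 lower in H460 and 11 and 12 in H1299. MPV17L2, an inner membrane protein of ribosome assembly, was lower in the 3 cell lines (-0.77, -0.38, and -0.25, from a mean of 314 reads). Of the 5 ribosomal proteins whose symbols do not start with MRPL or MRPS, DAP3, PTCD3, AURKAIP1, CHCHD1, and GADD45GIP1, 5 were higher in H460 (2 with log2(TPM + 1)) and 4 lower in H1299 (3 with log2(TPM + 1)). DAP3, the GTP-binding protein of the small subunit, was higher in all 3 on scaled counts (0.06, 0.12, and 0.21), although its TPM in H460 was lower (137 in the control and 128 after si-MALAT1), and CHCHD1 had 0.13, -0.64, and -0.28.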

How the data were processed

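Total RNA of 6 libraries (control and si-MALAT1, H460, H1299, and A549) was sequenced on a stranded library type after removal of ribosomal RNA. According to the methods and the labels, the authors trimmed the reads and aligned them with HISAT 2.1.0. The deposited read counts per gene are whole numbers without normalization, and the deposited TPM and FPKM are levels that the authors corrected for length and depth with StringTie (the labels give version 1.3.4b, the methods another). The labels name both hg19 and GRCh38, and the methods hg38. The read counts were deposited beside 18 columns of other samples, which were not used.

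Read counts were fitted with edgeR 4.0.16 (quasi-likelihood, TMM, filterByExpr, cell line and treatment, 19122 genes, Benjamini-Hochberg) in R 4.3.3, with DESeq2 1.42.0 as the alternative. The pairing comes from the cell line, which the control and si-MALAT1 library of a pair share. Nothing in the labels says that cultures were repeated, so p-values measure the spread between these libraries. Within cell lines, log2 fold changes were taken from RLE-scaled counts plus 1 over 17834 genes with a read in every library. Exact 95% Clopper-Pearson intervals describe counting error only. With totals of 42506818 to 68515992 reads, their median width to either side was 0.08 to 0.09 on the log2 scale for the members.

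Members were matched by symbol and biotype, and all 78 passed the filter. Named members were the 8 higher and 8 lower in all 3 cell lines with the largest mean change, the 6 with the largest range, the 10 with the largest difference between cell lines, the 5 highest and 5 lowest in mean TPM, S18 paralogs, stalk proteins, members sharing exon bases, and, of other lists, up to 3 genes. Members and lists were chosen with earlier results of these data known. Positions come from the NCBI annotation on GRCh38, which was the build of the reference genome used here, and promoters from RefSeq (GRCh38.p14). The scripts were tested on simulated data. Alternatives were another scaling, test, filter, pseudocount, or unit, no pairing, and each cell line left out. Scaling by library totals, the medians between cell lines with log2(TPM + 1), and the counts of subunits, other lists, sign patterns, and signs of single members with log2(TPM + 1) were added after the values were seen.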

Additional observations from a re-analysis of the deposited data

Results flagged for a closer look

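The change after si-MALAT1 had opposite directions in different cell lines for the members as a whole and for some single genes, and none of these differences between cell lines was tested, since each cell line has 1 library per condition. The median log2 fold change over the 78 genes was 0.1284 in H460 (-0.0021 with log2(TPM + 1)), as against -0.1440 in H1299 (-0.0473) and -0.0754 in A549 (-0.0802). With log2(FPKM + 1) the median was 0.127 in H460, -0.1026 in H1299, and -0.055 in A549. MRPL23 stood at 0.1894 in H460, as against -0.7942 in H1299 and -0.1050 in A549, and MRPS34 at 0.0978, -0.7781, and -0.2172, each with counting intervals on opposite sides of 0. With log2(TPM + 1) MRPS34 stood at -0.0386 in H460, so it was then lower in all 3 cell lines. MRPL57 stood at 0.4191 in H460 and -0.3723 in H1299 by read counts, and its TPM went the other way in H1299. In A549 it stood at 0.0913 by read counts and at -0.1996 with log2(TPM + 1). With 3 libraries per group, no library was tested for standing apart from its group.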

How the results depend on the processing

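Of the alternatives tried, most left the results on the same side. A count was taken as the same within 1.5 times, and 0 beside 0 also counted. A median or summed level was taken as the same if it kept its sign and moved less than the spread between the medians of cell lines or conditions, or a fixed minimum. By these rules 126 of the values that answer a comparison were the same, 16 moved, and 5 changed sign. The rule for medians is wide. The H1299 median with log2(TPM + 1), -0.0473 beside -0.1440, counts as the same. The cause of each was not tested. In the paired comparison edgeR called 0 members with TMM, RLE factors, library totals, no filter, or no replicate block (0 members also at an unadjusted p under 0.05 without the block), so pairing by cell line changed no adjusted call, while DESeq2 called 1 higher and 4 lower. Leaving out each cell line in turn gave 0 to 1 lower, the 1 being MRPL58 without H460 (replicate 1). The adjusted p of MRPL58 was 0.00405 to 1.0 over its alternatives, that of MRPL45 1.1e-05 to 1.0, MRPL4 0.0331 to 1.0, MRPL21 0.04 to 1.0, and MRPL15 0.0419 to 1.0. The paired log2 fold change changed sign for MRPL23 without H1299 and for MRPL57 without H460, and ranged with each cell line left out from -0.4609 to 0.0371 for MRPL23 and from -0.1537 to 0.2508 for MRPL57.

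Between cell lines, dropping the treatment term left 4 members lower in A549 than in H1299. With library totals 4 were lower in A549 than in H460, and 26 were higher and 17 lower in H1299 than in H460. Library totals and, between cell lines, log2(TPM + 1) were chosen after seeing the data. The median difference between A549 and H460 was 0.29 with library totals and 0.37 with log2(TPM + 1), beside 0.09. Between H1299 and H460 it was 0.0368 and 0.0888, beside -0.25, and between A549 and H1299 0.21 from control libraries alone, beside 0.36.

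Within cell lines, log2(TPM + 1) gave a median of -0.0021 in H460 and -0.0473 in H1299 (beside 0.1284 and -0.1440), medians of -0.0674 and -0.0393 for the large and small subunits in H1299, 1 member (MRPL57) higher past 1.5-fold in H1299, and 28 members lower in all 3 cell lines. With log2(FPKM + 1), the median was 0.127 in H460 and -0.1026 in H1299. On that scale 0 members were lower past 1.5-fold in H460 and 1 was higher in H1299. Leaving out 1 cell line, which leaves fewer cell lines to share a sign, gave 15 to 45 members lower in the remaining ones, the most without H460, and 16 to 28 higher, the most without H1299, and the mean of the medians ranged from -0.1097 to 0.0265, positive without H1299. The summed level in H460 had a log2 ratio of -0.03 in TPM and 0.11 as a share of counts.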
